A study of Homo sapiens with 6 samples.

Results

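The genes described here encode the cyclin-dependent kinase (CDK) inhibitors of human cells: CDKN1A (p21), CDKN1B (p27) and CDKN1C (p57) of the CIP/KIP family, CDKN2A (p16 and ARF), CDKN2B (p15), CDKN2C (p18) and CDKN2D (p19) of the INK4 family, and CDKN3, a phosphatase named with them. They were taken as a family, by gene symbol, and make up 8 of the 60675 genes counted. All 8 were abundant enough to be among the 15568 genes tested. The libraries are RNA-seq of MRC-5, a widely used cell line of fibroblasts from fetal human lung that divides a limited number of times. In the quiescent group (n = 3) the cells were, per the labels, subjected to quiescence by 9 days of contact inhibition. In contact inhibition a crowded culture leaves the cell cycle reversibly. The young group (n = 3) is the control, with no such treatment named. Both groups were at population doubling 32, and the labels name no genetic change or drug in either.

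Per the labels, the young libraries were reanalysed from another, earlier series, and in every difference below the set of libraries and the growth state cannot be told apart. Whether the 3 libraries of each group came from separate cultures is not stated, so the p-values reflect spread among these libraries alone, and that spread may be technical. In bulk RNA, fewer cells of a kind and less RNA per cell cannot be told apart. Total counts were 26860981 to 29433764 in young libraries, called 1.0, 1.1 and 1.2 after their columns, and 18661639 to 22546237 in quiescent ones. Transcripts of fibroblasts were abundant in both groups: 9 of 9 listed markers were tested, and their summed level was 25080 to 25700 CPM (read counts scaled to a common library total, here with TMM factors) in young and 14640 to 15000 CPM in quiescent libraries, with 2 markers higher and 6 lower. Markers of other cell types were low for blood (0.905 to 1.41 CPM young, 2.42 to 3.38 CPM quiescent, 1 of 7 tested and higher, CD3E without a read) and for epithelium (54.8 to 56.7 and 27.8 to 28.8 CPM, 3 of 8 tested and 3 lower, SFTPC and SCGB1A1 without a read). The summed endothelial markers were 87.2 to 96.4 and 99.0 to 100.8 CPM (4 of 7 tested, 3 higher and 1 lower, with PECAM1, CDH5 and CLDN5 below the filter). Most of that sum was TEK (78.7 ± 5.47 and 89.1 ± 0.839 CPM, SD, n = 3), while VWF went from 0.803 ± 0.209 to 3.27 ± 0.277 CPM and KDR from 0.394 ± 0.236 to 3.10 ± 0.112 CPM. The summed markers of pericytes and smooth muscle were 770.3 to 799.4 and 301.7 to 302.7 CPM (6 of 7 tested, 5 lower). These counts of markers stand beside 34.8% of all tested genes higher and 36.3% lower, at the threshold given below. The part of these cell types in the results below was not tested.

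CDKs need a cyclin partner to drive a cell through its cycle. INK4 proteins bind the free kinases CDK4 and CDK6 and keep D cyclins away from them, so that the retinoblastoma protein stays unphosphorylated and holds E2F factors in check. CIP/KIP proteins bind whole cyclin-CDK complexes: they block those with CDK2, while p21 and p27 can also help to assemble those of CDK4 and CDK6. CDKN3 removes the activating phosphate from CDK2 and, unlike the others, is best known as a transcript that rises as cells approach mitosis. p27 is the inhibitor classically tied to contact inhibition in fibroblasts, largely through its protein stability, which RNA counts do not show.

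The promoters of 4 of the genes are shown because these genes moved furthest in each direction among those with a sequence, and because cell cycle genes share known promoter elements. Each is the 250 bases before a RefSeq transcription start on GRCh38.p14, printed 5′ to 3′ along the gene's strand. Capitals mark a CCAAT box (CCAAT, or ATTGG on the other strand), a cell cycle homology region (CHR, TTTGAA, or TTCAAA on the other strand) or an E2F site (TTCCCGCC, or GGCGGGAA on the other strand). The windows are chr14:54396757-54397006 (+) for CDKN3, chr1:50968456-50968705 (+) for start 2 of the 3 starts of CDKN2C, chr12:12717118-12717367 (+) for CDKN1B and chr9:22009306-22009555 (-) for CDKN2B.
CDKN3: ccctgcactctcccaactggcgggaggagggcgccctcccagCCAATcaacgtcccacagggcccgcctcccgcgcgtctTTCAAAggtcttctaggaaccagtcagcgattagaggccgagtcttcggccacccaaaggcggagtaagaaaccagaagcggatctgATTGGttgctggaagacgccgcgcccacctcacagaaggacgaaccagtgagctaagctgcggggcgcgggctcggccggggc
CDKN2C: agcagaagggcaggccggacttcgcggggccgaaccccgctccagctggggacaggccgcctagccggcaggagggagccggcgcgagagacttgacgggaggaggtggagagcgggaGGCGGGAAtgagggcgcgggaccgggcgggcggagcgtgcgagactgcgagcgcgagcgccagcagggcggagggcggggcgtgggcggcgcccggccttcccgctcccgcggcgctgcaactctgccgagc
CDKN1B: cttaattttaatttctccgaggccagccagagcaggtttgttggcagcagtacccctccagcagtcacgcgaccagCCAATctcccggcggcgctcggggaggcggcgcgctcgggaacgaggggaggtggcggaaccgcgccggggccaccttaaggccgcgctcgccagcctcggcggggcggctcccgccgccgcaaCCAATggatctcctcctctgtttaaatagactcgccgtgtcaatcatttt
CDKN2B: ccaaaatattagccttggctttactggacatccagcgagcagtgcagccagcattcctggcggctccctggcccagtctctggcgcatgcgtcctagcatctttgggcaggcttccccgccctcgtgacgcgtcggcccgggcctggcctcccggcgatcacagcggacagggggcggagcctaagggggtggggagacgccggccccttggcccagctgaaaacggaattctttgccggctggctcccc
RefSeq entries were matched for 7 of the 8 genes (all but CDKN1C), giving 10 windows in all, and each motif was sought on both strands. The CHR letters occurred in 1 of the 10 windows, that of CDKN3, and in 13.3% of 35116 promoters of the same length. There it stands between 2 CCAAT boxes. The CHR is known as an element through which the DREAM complex acts on cell cycle genes. CCAAT occurred in 4 windows, those of CDKN1B, CDKN2C, CDKN2D and CDKN3, against 32.0% of all promoters. The E2F letters TTCCCGCC occurred in 1 window, of CDKN2C (2.72% of all promoters), and TTTCCCGC and TTTGGCGC in 0 (1.39% and 0.55% of all promoters). TTTCCCGC and TTCCCGCC can overlap. The GC box GGGCGG, to which SP1 binds, occurred in 7 windows (42.6%), the E-box CACGTG in 2, both of CDKN2C (6.34%), and the FOXO letters GTAAACA in 0 (2.98%). For CDKN2C, the printed start 2 is the window with the E2F letters, and starts 1 and 3, not printed, have none. Its CCAAT lies in the window of start 3 and its E-boxes in those of starts 1 and 3. A match is a description of the letters, not evidence of binding.

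All 8 inhibitor genes differed between the groups, 3 higher and 5 lower in quiescence, and the 3 young and 3 quiescent values did not overlap for any of the 8. Calls rest on edgeR's quasi-likelihood test with Benjamini-Hochberg adjustment over the 15568 tested genes, at adjusted p under 0.05. This count stands beside a broad change: 71.1% of all tested genes were called (34.8% higher, 36.3% lower), and 73.5% had values that did not overlap, so the count of called members is not by itself particular. At least 2-fold, 3 of the 8 were higher (8.98% of all tested genes) and 2 were lower (8.33%). The median log2 fold change was -0.21 over the 8 genes and 0.00 over all tested genes. The small falls depended on scaling between libraries: scaling by library size alone put the median over all genes at 0.18, 73.6% of them were called (48.6% higher, 25.0% lower), and 3 inhibitors were called higher and 2 lower.

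**Figure D1:**
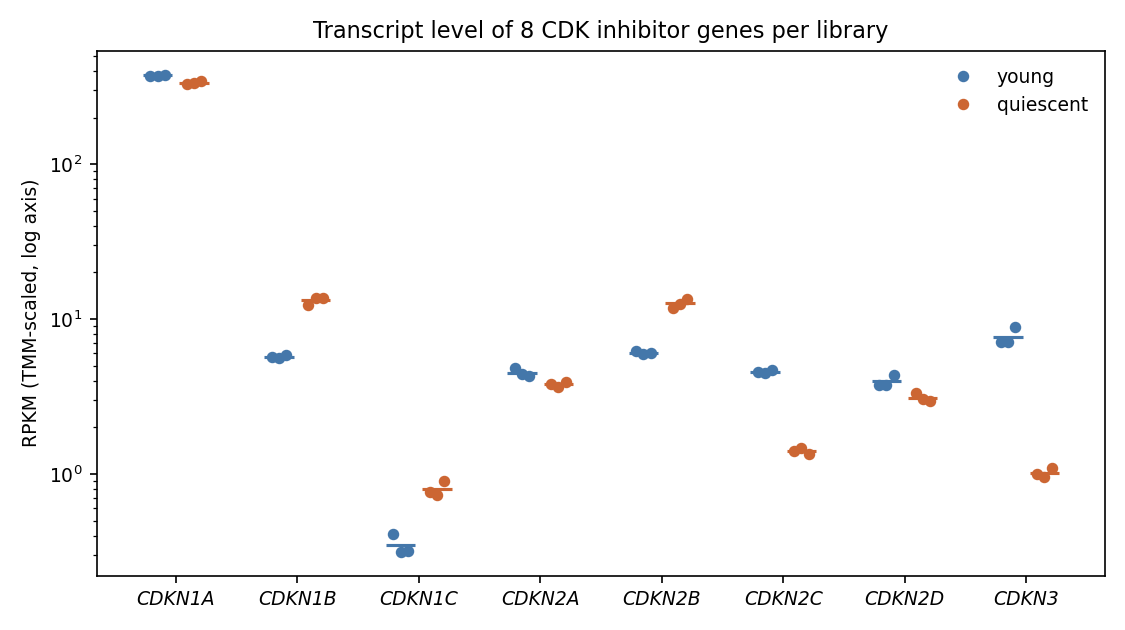
Transcript level of each CDK inhibitor gene in reads per kilobase of gene length and per scaled library size (RPKM, TMM-scaled, log axis) in 3 young and 3 quiescent libraries; points are libraries and short lines are group means. CDKN1A sits far above the other genes in both groups, CDKN1B, CDKN1C and CDKN2B are higher in every quiescent library, and CDKN2C and CDKN3 are lower in every one.

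In the CIP/KIP family, p27 and p57 transcripts were more than 2-fold higher in quiescent cells, while the far more abundant p21 transcript stood slightly lower. CDKN1B (ENSG00000111276, chromosome 12 from 12715058 to 12722371, + strand, GRCh38) had 24.9, 24.3 and 25.5 CPM in young libraries 1.0, 1.1 and 1.2, and 53.8, 59.2 and 59.8 CPM in quiescent replicates 1, 2 and 3. Every quiescent library was above every young one, by a wide margin. The ratio of means was 2.31 (log2 1.21 ± 0.05, SE, edgeR adjusted p = 1.03e-16), and 93.5% of tested genes had a lower log2 fold change. CDKN1C (ENSG00000129757, chromosome 11 from 2883213 to 2885773, - strand) is an imprinted gene whose product restrains growth of the embryo. It was the rarest of the 8, with 27, 22 and 23 reads in the young and 41, 45 and 46 reads in the quiescent libraries. That is 1.06, 0.813 and 0.825 CPM against 1.99, 1.89 and 2.32 CPM, so the groups were apart, though each value rests on few reads. The log2 fold change was 1.19 ± 0.21 (adjusted p = 2.01e-05), a difference of the same size as that of CDKN1B with a standard error several times larger.

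CDKN1A (ENSG00000124762, chromosome 6 from 36676460 to 36687339, + strand), known for its induction in arrest after DNA damage, had 1078, 1078 and 1095 CPM in young and 946.5, 973.0 and 992.9 CPM in quiescent libraries. The quiescent mean was 89.6% of the young one, and 99.4% of tested genes had a lower mean CPM than CDKN1A in young cells. The log2 fold change was -0.16 ± 0.04 (adjusted p = 6.65e-04). With library size alone it was 0.02 (adjusted p = 0.625), so the direction of this small difference turns with scaling. An RNA annotated on the opposite strand, DINOL, overlaps CDKN1A exons by 146 bases and shares 3.21% of its 50-base stretches. The library kit does not mark strand, and reads of the 2 genes cannot be told apart there.

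In the INK4 family, p15 transcripts were 2.07-fold higher in quiescent cells and p18 transcripts 3.24-fold lower, and p16/ARF and p19 differed little. CDKN2B (ENSG00000147883, chromosome 9 from 22002903 to 22009363, - strand) encodes the inhibitor known for induction by TGF-beta. It had 27.1, 25.9 and 26.0 CPM in young and 51.4, 54.3 and 58.2 CPM in quiescent libraries. The groups were far apart, with a ratio of 2.07 (log2 1.05 ± 0.05, adjusted p = 2.54e-15). CDKN2C (ENSG00000123080, chromosome 1 from 50960745 to 50974633, + strand), a target of E2F factors in cycling cells, had 15.1, 14.9 and 15.6 CPM in young and 4.65, 4.91 and 4.49 CPM in quiescent libraries. The quiescent libraries held 30.9% of the young level (log2 -1.69 ± 0.09, adjusted p = 3.79e-15), and 3.72% of tested genes had a lower log2 fold change.

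CDKN2A (ENSG00000147889, chromosome 9 from 21967753 to 21995301, - strand), whose p16 product accumulates in senescent fibroblasts, had 20.97, 19 and 18.5 CPM in young and 16.5, 15.7 and 16.9 CPM in quiescent libraries. The groups were close but did not overlap, and the quiescent mean was 84.0% of the young one (log2 -0.25 ± 0.07, adjusted p = 0.00204). This call ended with library size alone (-0.07, adjusted p = 0.364). The gene has 2 RefSeq starts 20467 bases apart, one for p16 and one for ARF, and a count per gene joins both products. CDKN2A also overlaps exons of CDKN2B-AS1 on the opposite strand by 341 bases, and 7.16% of its 50-base stretches occur in CDKN2B-AS1 or CDKN2B. CDKN2D (ENSG00000129355, chromosome 19 from 10566462 to 10569059, - strand), the remaining INK4 gene, had 6.57, 6.58 and 7.57 CPM in young and 5.77, 5.28 and 5.19 CPM in quiescent libraries. Its quiescent mean was 78.2% of the young one (log2 -0.35 ± 0.11, adjusted p = 0.00429), and the call ended with library size alone (-0.17, adjusted p = 0.146).

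CDKN3 (ENSG00000100526, chromosome 14 from 54396849 to 54420218, + strand), the phosphatase of the set, changed most. It had 13.1, 13.1 and 16.2 CPM in young and 1.84, 1.76 and 2.02 CPM in quiescent libraries. Young library 1.2 was above the other two, and every quiescent library was far below all of them. The fall was 7.56-fold (log2 -2.92 ± 0.13, adjusted p = 1.29e-16), and 1.05% of tested genes had a lower log2 fold change. The 14 listed mitotic genes whose transcripts peak with CDKN3 were all lower in quiescence as well (14 of 14 called lower, median -3.20), beside 36.3% of all tested genes. Their summed level was 808.5, 855.8 and 816.9 CPM in young libraries 1.0, 1.1 and 1.2 and 105.8, 105.6 and 99.2 CPM in quiescent replicates 1, 2 and 3. Library 1.2 was thus not the highest in the sum, but single genes of the list differed in this. In young libraries 1.0, 1.1 and 1.2, AURKA had 41.07, 44.66 and 48.15 CPM, highest in 1.2. TOP2A had 186.7, 205.1 and 190.2 CPM, highest in 1.1.

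**Figure D2:**
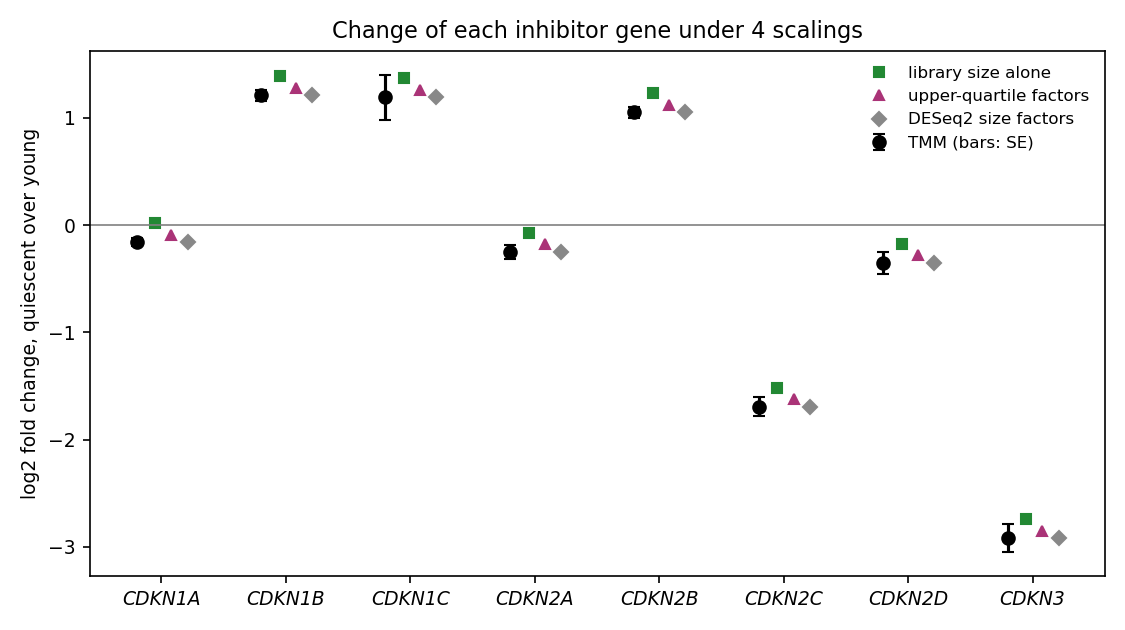
Log2 fold change of each inhibitor gene, quiescent over young, under 4 ways of scaling the libraries; circles with bars are the TMM-scaled edgeR value ± SE, the other symbols the alternatives. The rises of CDKN1B, CDKN1C and CDKN2B and the falls of CDKN2C and CDKN3 keep their place, and CDKN1A moves from -0.16 to 0.02 with library size alone.

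The order of the levels changed with growth state. Levels are compared between genes as RPKM, counts divided by gene length and by the TMM-scaled library size. In young cells CDKN1A stood first at 375.0 ± 3.38 RPKM (SD, n = 3), followed by CDKN3 (7.69 ± 0.995), CDKN2B (6.08 ± 0.147) and CDKN1B (5.73 ± 0.137). CDKN2C (4.58 ± 0.112), CDKN2A (4.501 ± 0.303) and CDKN2D (3.97 ± 0.330) came next, with ranges that overlapped between neighbours, and CDKN1C was last at 0.348 ± 0.0543 RPKM. In quiescent cells CDKN1A still led at 335.8 ± 8.05 RPKM, and CDKN1B (13.3 ± 0.754) and CDKN2B (12.6 ± 0.795) followed with overlapping ranges. CDKN2A (3.78 ± 0.137), CDKN2D (3.11 ± 0.177), CDKN2C (1.41 ± 0.0639), CDKN3 (1.02 ± 0.0710) and CDKN1C (0.798 ± 0.0874) followed in that order, without overlap at the gene lengths used. Thus CDKN3 was the second of the 8 in young cells and the seventh in quiescent ones. The gene lengths used are those behind the deposited RPKM. They differ from GENCODE 29 exon lengths for CDKN1A, CDKN1B, CDKN1C, CDKN2B and CDKN2D, most for CDKN1B (4347 against 2811 bases). Over the well-counted genes of the whole series, 15.7% of the lengths were equal. With GENCODE 29 lengths CDKN1B stood at 8.86 ± 0.211 RPKM in young cells, second instead of CDKN3 (7.69 ± 0.995), and at 20.5 ± 1.17 RPKM in quiescent cells, above CDKN2B (13.5 ± 0.849).

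The summed RPKM of the 3 CIP/KIP genes was 379.1, 379.0 and 385.0 in young and 340.6, 350.9 and 358.1 in quiescent libraries, almost all of it CDKN1A. The quiescent sums were lower in all 3 libraries (exact two-sided permutation p = 0.1, the smallest that 3 against 3 allow). With library size alone the means were 358.1 and 372.3, in the opposite direction (exact p = 0.2). The sum of the 4 INK4 genes was 19.4, 18.6 and 19.3 RPKM in young and 20.4, 20.7 and 21.7 RPKM in quiescent libraries (exact p = 0.1). The quiescent sums were slightly higher, without overlap, while CDKN2B and CDKN2C moved in opposite directions. Scaled by library size alone, the INK4 means were further apart, at 17.98 RPKM in young and 22.26 RPKM in quiescent libraries (exact p = 0.1).

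Shares of the 8 genes in their own summed RPKM do not depend on scaling between libraries. CDKN1A held 92.0%, 92.2% and 91.7% of the sum in young and 90.5%, 90.3% and 90.2% in quiescent libraries (exact permutation p = 0.1). The share of CDKN1B was 1.404 ± 0.0195% in young and 3.56 ± 0.124% in quiescent cells (SD, n = 3, exact p = 0.1), and that of CDKN2A 1.104 ± 0.0823% and 1.02 ± 0.0400%, with overlapping libraries (exact p = 0.2). Among the other 7 genes, CDKN1B made up 17.5%, 17.7% and 17.1% in young and 35.9%, 37.8% and 36.7% in quiescent libraries. CDKN2B made up 19.2%, 18.9% and 17.5% in young and 34.3%, 34.9% and 35.9% in quiescent ones. CDKN1B and CDKN2B together therefore supplied most of this sum in quiescent libraries and a minority in young ones. CDKN3 went the other way, from 21.8%, 22.5% and 25.7% in young to 2.90%, 2.67% and 2.93% in quiescent libraries, and CDKN2C from 13.9 ± 0.244% to 3.93 ± 0.273%. For each of the 7 genes the groups did not overlap, with exact p = 0.1. With GENCODE 29 lengths the share of CDKN1B was 23.9% in young and 45.9% in quiescent cells.

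**Figure D3:**
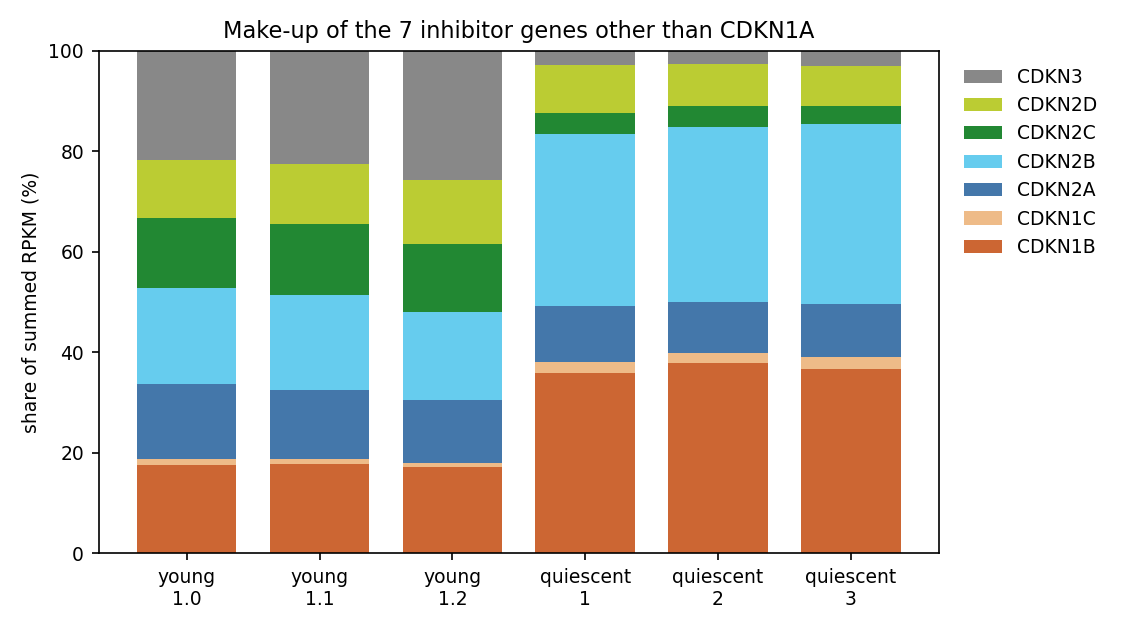
Make-up of the summed RPKM of the 7 inhibitor genes other than CDKN1A, as percent of the sum, in each of 3 young and 3 quiescent libraries (1 bar per library, 1 colour per gene). CDKN1B and CDKN2B grow from 17.4% and 18.5% of the sum on average to 36.8% and 35.0%, while CDKN3 shrinks from 23.3% to 2.83%.

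The balance of CIP/KIP transcripts to CDK2 shifted upwards in quiescence, while that of INK4 transcripts to CDK4 and CDK6 depended on the unit. CDK2, the kinase of cyclins E and A, fell from 49.9 ± 3.99 to 14.5 ± 0.734 CPM (SD, n = 3, log2 -1.78 ± 0.07, SE, edgeR adjusted p = 4.07e-18). Within each library, the ratio of CDKN1B to CDK2 RPKM was 0.430, 0.421 and 0.385 in young and 3.23, 3.23 and 3.32 in quiescent libraries. CDKN1B was thus below CDK2 in every young library and above it in every quiescent one, a 7.92-fold difference of the ratio (log2 difference 2.99, exact two-sided permutation p = 0.1, the smallest possible). With GENCODE 29 lengths the ratios were also below 1 in young (0.648 to 0.724) and above it in quiescent libraries (5.43 to 5.59). The ratio of CDKN1A to CDK2 was 28.0, 28.1 and 24.9 in young and 85.4, 79.8 and 82.9 in quiescent libraries, 3.07-fold higher with CDK2 lower (exact p = 0.1). For the CIP/KIP sum to CDK2 it was 28.49, 28.49 and 25.27 in young and 88.86, 83.15 and 86.44 in quiescent libraries (exact p = 0.1).

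For the INK4 side, the summed RPKM of the 4 INK4 genes divided by that of CDK4 and CDK6 was 0.432, 0.403 and 0.418 in young and 0.417, 0.426 and 0.434 in quiescent libraries. The libraries overlapped in this unit, and the log2 difference was 0.03 (exact p = 0.5). With CPM, not divided by gene length, the ratio was 0.289, 0.268 and 0.288 in young and 0.340, 0.350 and 0.361 in quiescent libraries, which did not overlap (log2 difference 0.32, exact p = 0.1). CDK4 rose from 107.3 ± 4.42 to 126.0 ± 1.84 CPM (adjusted p = 2.27e-05, a call that ended on the deposited RPKM, at 0.01 in log2 with limma adjusted p = 0.934) and CDK6 fell from 134.2 ± 9.84 to 105.5 ± 1.41 CPM (adjusted p = 4.12e-07). The ratio of CDKN3 to CDK1, the mitotic kinase, was 0.976, 1.07 and 1.2 in young and 0.997, 0.820 and 1.01 in quiescent libraries. These values overlapped (log2 difference -0.20, exact p = 0.3) while both genes fell. CDKN1B relative to CDKN1A went from 0.0153, 0.0150 and 0.0155 to 0.0378, 0.0404 and 0.0400, a 2.58-fold rise of a ratio that stayed far below 1 (exact p = 0.1). The ratio of CDKN2B to its neighbour CDKN2A, chosen after its values were seen, was 1.29, 1.36 and 1.41 in young and 3.11, 3.45 and 3.45 in quiescent libraries (2.46-fold, exact p = 0.1). Of these 7 ratios, none can fall under 0.05 in a design of 3 against 3, adjusted or not.

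**Figure D4:**
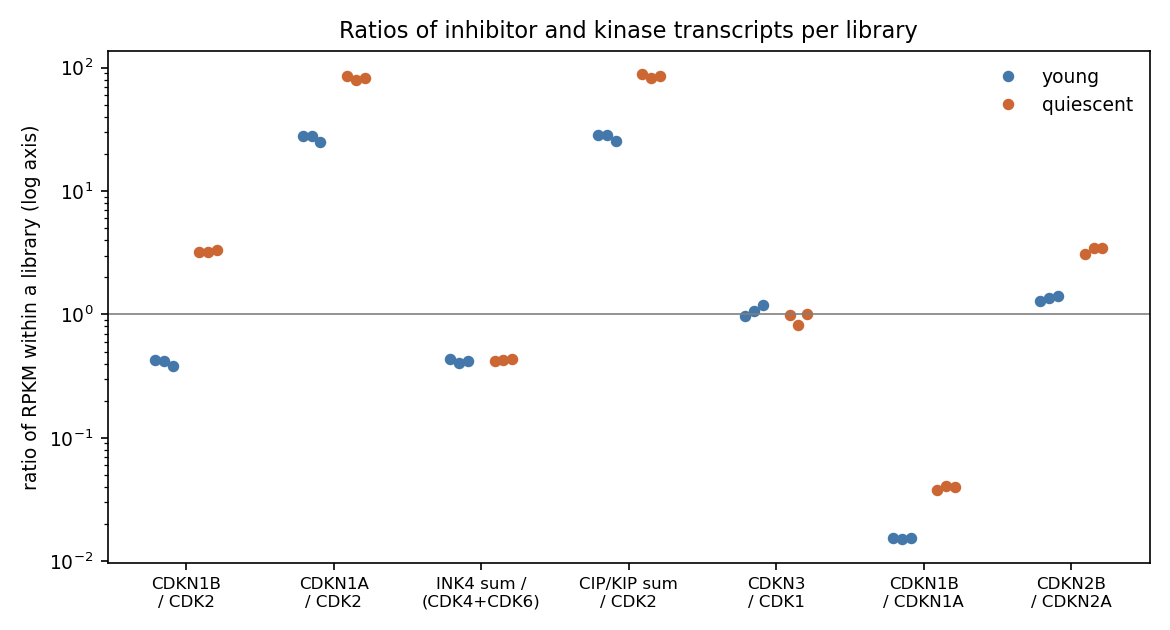
Ratio of inhibitor to partner RPKM within each library (log axis; the grey line marks a ratio of 1), 3 young and 3 quiescent libraries as points. CDKN1B/CDK2 crosses from 0.385 to 0.430 in young up to 3.23 to 3.32 in quiescent libraries, while INK4/(CDK4+CDK6) and CDKN3/CDK1 overlap between groups in this unit.

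Transcripts of the cyclins and kinases that the inhibitors bind were mostly lower in quiescence. All counts of listed and neighbouring genes from here on stand beside 34.8% of all tested genes called higher and 36.3% called lower. With library size alone these shares were 48.6% and 25.0%. Of the 5 D cyclins and their kinases, 2 rose and 3 fell. Cyclin D1, CCND1, was 1.81-fold lower (log2 -0.86 ± 0.04) and CCND3 1.68-fold lower, whereas CCND2 was 2.02-fold higher (log2 1.02 ± 0.06, edgeR adjusted p = 1.01e-13). Of the E and A cyclins, CDK1 and CDK2, 5 of 6 genes were tested and 5 fell, with a median of -1.78. CDK1 stood at -2.70 ± 0.08 and cyclin A2, CCNA2, at -2.42 ± 0.07. Of the 3 pocket proteins, RBL1 (p107), which is made in cycling cells, fell by 0.93 ± 0.08 on the log2 scale, and RBL2 (p130), the form of resting cells, rose by 0.37 ± 0.04. RB1 was at -0.07 ± 0.04 (adjusted p = 0.130). With library size alone, 2 of the 3 were called higher and 1 lower.

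Of the 10 genes listed for ubiquitin ligases of p27 and their cofactors, 6 fell and 1 rose (3 higher and 4 lower with library size alone), with a median of -0.18. The falls were led by CKS2 (-1.75 ± 0.07) and CKS1B (-1.06 ± 0.15), small CDK-binding proteins, of which CKS1B is the cofactor by which the SKP2 ligase recognises p27. SKP2, given here after its values were seen, stood at 30.7 ± 1.42 CPM in young and 17.2 ± 0.611 CPM in quiescent libraries (adjusted p = 5.02e-12). The single rise was KLHL21 (1.05 ± 0.04), an adaptor of cullin 3 ligases known for its work on Aurora B in mitosis rather than on p27. Of 7 other ligase genes of CIP/KIP proteins, 4 fell and 1 rose (4 and 2 with library size alone). CDC20, the activator of the anaphase-promoting complex, stood at -3.45 ± 0.08 and DTL, which directs p21 to destruction in S phase, at -1.98 ± 0.09. CUL4B was the rise, at 0.28 ± 0.04.

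Of 16 tested transcription factors known to act on CIP/KIP genes, 11 rose and 4 fell, with a median of 0.23 (12 and 3 with library size alone), beside 34.8% and 36.3% of all tested genes. The 3 largest changes of those above 1 CPM were falls: E2F1 (-1.64 ± 0.10), KLF6 (-1.36 ± 0.05) and MYC (-1.26 ± 0.04), the last a repressor of CDKN1A and CDKN2B. The FOXO factors, which activate CDKN1B, are given after their values were seen. FOXO1 was at 0.122 ± 0.0735 CPM in young and 1.57 ± 0.142 CPM in quiescent libraries, FOXO3 rose by 0.54 ± 0.05 and FOXO4 by 0.71 ± 0.08.

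Polycomb proteins keep the INK4 locus silent in cycling cells. Of 17 such genes, 7 rose, 2 fell and 8 were not called, with a median of 0.11, beside 34.8% and 36.3% of all tested genes. With library size alone, 13 were higher and 1 lower, beside 48.6% and 25.0%. EZH2, the methyltransferase of dividing cells, fell by 1.28 ± 0.07, its relative EZH1 rose by 0.52 ± 0.05 and CBX7 by 1.25 ± 0.08. Of 8 other repressors of the locus, 6 fell and 1 rose, led by ID4 (-2.06 ± 0.10), ID1 (-2.05 ± 0.07) and ID3 (-1.53 ± 0.11). ID proteins block the E proteins and ETS factors that activate p16. Of 6 activators, 3 rose and 3 fell (3 and 2 with library size alone). KDM6B, a histone demethylase that opposes Polycomb, rose by 0.67 ± 0.06, ETS1 fell by 0.52 ± 0.04, and JUNB was at -0.43 ± 0.08 (adjusted p = 0.00122), a call that ended without young library 1.2 (-0.42, adjusted p = 0.0535).

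**Figure D5:**
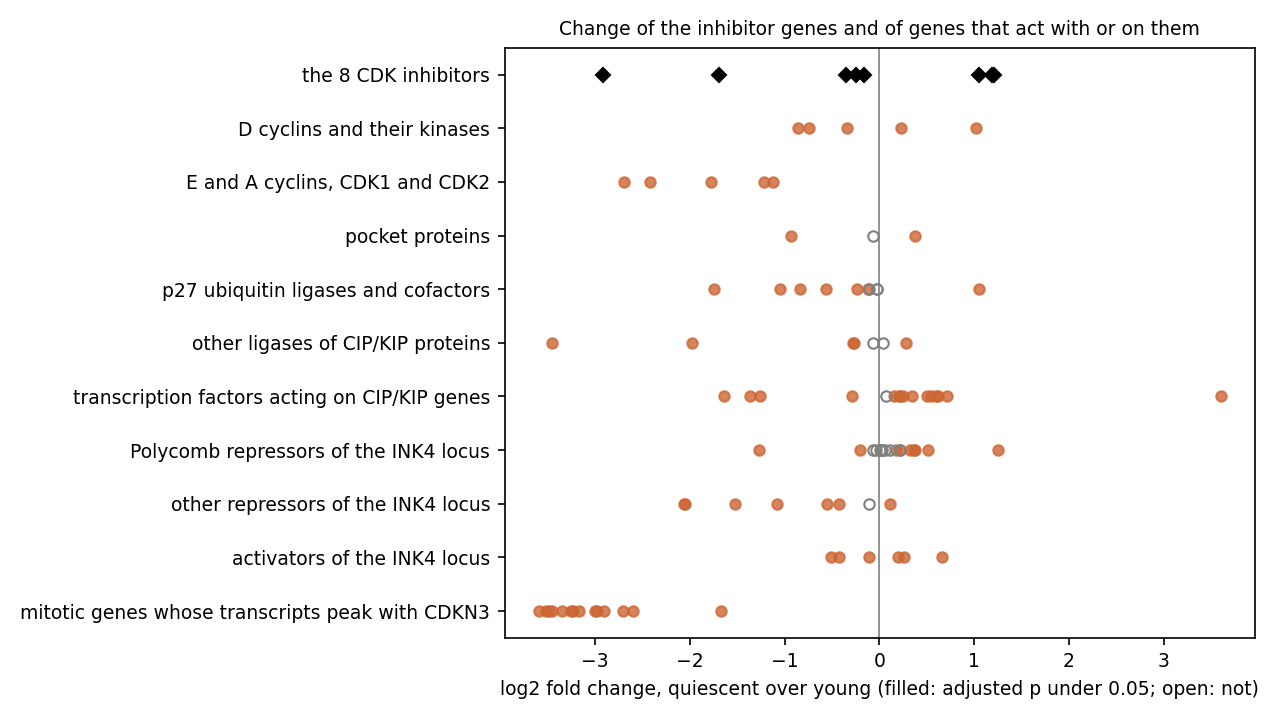
Log2 fold change, quiescent over young, of the 8 CDK inhibitors (black) and of the tested genes of 10 lists of partners and regulators; each circle is 1 gene, filled where adjusted p is under 0.05. The mitotic list lies wholly below 0, where CDKN3 (-2.92) also falls, and so does the list of E and A cyclins, CDK1 and CDK2. The other lists spread to both sides of 0.

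On the chromosome, the inhibitors did not move with all their neighbours. Within 100000 bases of the 8 genes, CDKN2B and CDKN2A lie 7602 bases apart, and CDKN2B rose while CDKN2A fell slightly. The CDKN2A call ended with library size alone (log2 -0.07, edgeR adjusted p = 0.364). CDKN2B-AS1, the antisense RNA ANRIL that spans the locus, had 0.673 ± 0.135 CPM in young and 1.24 ± 0.162 CPM in quiescent libraries (log2 0.87 ± 0.26, adjusted p = 0.00431). MTAP, at the other side of CDKN2A, stood at 23.3 ± 0.912 and 24.8 ± 0.930 CPM (adjusted p = 0.203). Of the 4 tested neighbours of CDKN1B, 2 rose and 2 fell, among them CREBL2 (0.48 ± 0.04) and APOLD1 (-0.69 ± 0.12). A sense RNA inside the CDKN1B gene, AC008115.3, was at 0.506 ± 0.154 CPM in young and 1.90 ± 0.687 CPM in quiescent libraries, and its reads cannot be told from intronic reads of CDKN1B. Beside CDKN1C, the imprinted gene PHLDA2 fell by 1.24 ± 0.18 and SLC22A18 rose by 0.45 ± 0.10. The single tested neighbours of CDKN1A (SRSF3, -0.55 ± 0.04) and CDKN2C (FAF1, -0.29 ± 0.05) fell. Of the 3 tested neighbours of CDKN3, CNIH1 (0.26 ± 0.04) and CGRRF1 (0.27 ± 0.08) rose and GMFB (-0.41 ± 0.04) fell, each by less than 0.5 in log2. Around CDKN2D, 4 of 8 rose and 4 fell, among them KRI1 (0.14 ± 0.05) on one side and AP1M2 on the other. AP1M2, 3612 bases away, had 62 reads over all 6 libraries and went from 0.694 ± 0.227 to 0.0860 ± 0.110 CPM (adjusted p = 7.38e-05). That was the largest log2 difference of any tested neighbour, but AP1M2 passed the filter on low counts through its young values alone. Its quiescent level was near the floor.

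The genes most like each inhibitor were those with the smallest root mean square difference in log2 CPM, centred over the 6 libraries, among tested genes of at least 1 CPM on average. For CDKN3 these were SNCG (0.098) and NCAPG (0.118), a condensin subunit, and only 1 gene lay within 0.1 of it. CDKN2C was nearest to JPT1 (0.038) and COL8A1 (0.039), with 65 genes within 0.1. CDKN1B was nearest to PPFIBP2 (0.036) and PSAP (0.045), the precursor of the saposins of the lysosome, with 106 genes within 0.1. CDKN2B was nearest to CHPF (0.031) and the lysosomal glucosidase gene GAA (0.040), with 139. CDKN1C, the rarest, was nearest to GVQW3 (0.061) and AL513477.1 (0.070), with 14. The small changes were common patterns: 2714 genes lay within 0.1 of CDKN1A (PTP4A1 and NMD3 nearest), 1538 of CDKN2A (WDR44 and MTA1) and 1002 of CDKN2D (SNX7 and SSBP1). The points of each comparison are 6 libraries in 2 groups, which all genes share.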

How the data were processed

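RNA was sequenced from 6 MRC-5 libraries made, per the labels' protocols, with Illumina's TruSeq RNA kit v2, which does not mark strand. The submitters' processing notes name STAR 2.4.1d, bcl2fastq 1.8.4, GRCh38 and featureCounts 1.4.6-p4. The authors deposited raw read counts per gene, not normalised, and RPKM values for the same 60675 genes. For the annotation release and strand setting, the sources used here name none. Symbols, coordinates and exon lengths came from GENCODE 29 for 57055 genes.

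Counts were filtered with filterByExpr, scaled with TMM and tested with edgeR 4.0.16 in R 4.3.3 (robust quasi-likelihood fit, group as the only term, Benjamini-Hochberg over 15568 genes). The biological coefficient of variation was 3.84%. CPM use TMM-scaled library sizes. The code was checked on simulated counts. Total counts per library were 18661639 to 29433764, and reads carry no molecular identifiers, so they are not independent molecules.

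The deposited RPKM could not serve between libraries. Over 8074 well-counted genes, the counts divided by RPKM imply library totals that alternate down the rows: lengths so recovered equal GENCODE 29 exon lengths in 15.7% of genes, against 0.019% with either other total. Within a row the quiescent divisors differ by a median of 1.25 times. Shares and ratios, planned on deposited RPKM, were therefore computed from counts, the recovered lengths and TMM-scaled library sizes, and tested by exact two-sided permutation.

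Named genes are all 8 inhibitors, per list up to 3 called genes of at least 1 CPM with the largest change, genes used in ratios, tested genes within 100000 bases and the 2 nearest patterns. Neighbours not named in the text are given by counts, and some genes that this rule names, and 1 list, are not reported here. The inhibitors and lists were chosen with earlier results of these data known. Young columns could be matched to the group but not to single samples. Alternatives were DESeq2 1.42.0 size factors and Wald test, library size alone, upper-quartile factors, other filters, limma-voom (limma 3.58.1), limma on log2(deposited RPKM + 1) and + 0.1, CPM or GENCODE 29 lengths in shares and ratios, and omission of each library. The recomputation of shares and ratios, their alternatives on GENCODE 29 lengths and on deposited RPKM, and the CDKN2B to CDKN2A ratio were chosen after the data were seen.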

Additional observations from a re-analysis of the deposited data

How the results depend on the processing

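The direction and call of CDKN1B, CDKN1C, CDKN2B, CDKN2C and CDKN3 held under every alternative run. With library size alone, CDKN1A stood at 0.0204, CDKN2A at -0.0716 and CDKN2D at -0.175 in log2, none called. On deposited RPKM with a pseudocount of 1 and of 0.1, limma gave -0.165 and -0.165 for CDKN1A (adjusted p = 0.403 and 0.415), 0.0693 and 0.0863 for CDKN2D, and -0.0617 and -0.0649 for CUL4B. With both pseudocounts it also called neither CCND3, CDK4, RBL1, RBL2 nor EZH1, whose directions held. It called 7292 genes, 2788 higher, with 1 and 2880 higher with 0.1. These RPKM carry the fault in their library totals described above, and its part in these values was not tested. In log2 over the 6 omissions of 1 library, CDKN1A ranged from -0.163 to -0.139, CDKN1B from 1.19 to 1.26, CDKN1C from 1.12 to 1.33, CDKN2A from -0.278 to -0.186, CDKN2B from 1.02 to 1.097, CDKN2C from -1.73 to -1.65, CDKN2D from -0.397 to -0.271 and CDKN3 from -2.97 to -2.79, all still called, with 10439 to 11034 genes called. Shares moved, in percentage points, with CPM to -3.76 for CDKN1A, 3.08 for CDKN1B, 2.69 for CDKN2B, -0.854 for CDKN2C and -1.02 for CDKN3. With GENCODE 29 lengths they moved to -2.84 for CDKN1A, 3.39 for CDKN1B, 2.05 for CDKN2B and -0.778 for CDKN2C. With deposited RPKM they moved to -2.64 for CDKN1A, 3.24 for CDKN1B, -0.277 for CDKN2A and -0.820 for CDKN2C, and CDKN2D turned from -0.135 to 0.156. Log2 ratios moved with CPM to 0.316 for INK4 over CDK4 plus CDK6. With deposited RPKM they moved to 0.239 for that ratio, 3.32 for CDKN1B to CDK2, 1.66 for CDKN1B to CDKN1A and 1.58 for CDKN2B to CDKN2A. The other 271 values of these comparisons kept direction and call, or moved by less than the spread between replicates, or within 1.5 times for counts of genes. No paired analysis was possible because the young columns carry no replicate numbers of their samples. CDKN1C, at 22 to 46 reads per library, is the gene whose depth limits precision most.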
